A study of Mus musculus with 24 samples.

Results

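MC38 cells carrying control guide 2 were compared with MC38 cells carrying control guide 1. The comparison took the 6 guide 2 control libraries (2 untreated, 2 after 1 h of TNF and 2 after 6 h of TNF) and the 6 guide 1 control libraries of the same make-up, 12 of the 24 libraries of the series, with treatment as a covariate. All 12 are labelled genotype control and cell line MC38, grown in DMEM with serum, and differ in the control gRNA and in TNF exposure. The other 12 libraries come from MC38 cells carrying Ado gRNA 1 or Ado gRNA 2 under the same 3 treatments. Neither the control guide sequences nor a target for them is given, each control guide is represented by 1 population, and it is not stated whether a population is a clone or a pool. A difference between the guides therefore cannot be told apart from a difference between the 2 cell populations that carry them. The 2 libraries of a guide and treatment are labelled as replicates, with nothing on whether they came from separate cultures, so the p-values reflect the scatter of these libraries alone, and that scatter may be technical.

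MC38 is a transplantable mouse colon carcinoma line that is widely used in tumour immunology. In CRISPR experiments, cells given a control guide serve as the reference against which a gene knockout is read, and each guide is introduced into its own batch of cells that then grows separately. Tumour cell lines are mixtures of cells, and separately grown populations can come to differ in heritable expression, so that 2 control populations need not be identical. TNF is a cytokine that binds TNF receptors and activates NF-kB, which within minutes to hours induces chemokine genes, adhesion molecules and its own inhibitors. The question addressed here is which genes separate the control populations whatever the treatment, and whether the populations answer TNF differently.

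Expression was measured from the 3' ends of transcripts, and values are log2 CPM (log2 of tag counts scaled to a common total), so levels are set side by side only between libraries and not between genes. The depth per library was not stated, and the lowest value of -3.35, shared by all libraries, corresponds to a mean of about 5.1e+06 tags if the usual limma offset was used. At that lowest value stood 801 to 1008 genes per library in guide 1 (median 927) and 681 to 908 in guide 2 (median 790.5). Replicates correlated across genes at 0.965 to 0.976 within guide 1 and at 0.975 to 0.979 within guide 2, and libraries of different guides at 0.960 to 0.973 (genes are not independent replicates). The replicates of guide 1 at TNF 1 h stood furthest apart, with a median absolute difference between them of 0.31 on the log2 scale against 0.18 to 0.22 for the other pairs. Mitochondrial mRNA took 1.40% to 2.32% of the summed CPM. Of 15 intestinal epithelial markers 11 were absent from the table, including Epcam, Krt19, Krt20, Vil1 and Cdx2, and the others summed to 1.71 to 3.19 CPM in guide 1 and 0.978 to 3.86 CPM in guide 2. Mesenchymal markers summed to 1326 to 1691 CPM in guide 1 and 1553 to 1758 CPM in guide 2, immune markers to 12.1 to 35.5 and 12.4 to 26.4 CPM, and fibroblast and pericyte markers to 21.2 to 27.4 and 15.8 to 22.5 CPM. Most of the mesenchymal sum was Vim, with a median of 10.45 log2 CPM in guide 1 and 10.54 in guide 2. The mesenchymal marker Col1a1 was absent from the table. Of 5 endothelial markers only Pecam1 was in the table. Ado itself ran from 5.01 to 5.25 log2 CPM (median 5.12) in guide 1 and from 5.19 to 5.37 (median 5.23) in guide 2, and did not pass the test (difference 0.14, adjusted p = 0.377).

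The control populations differed in 343 of 12728 genes tested (2.69%; limma, adjusted p under 0.05, referred to as called). Of these, 221 (1.74%) were higher and 122 (0.959%) were lower in guide 2. The higher genes included Rhox5, a homeobox gene of the reproductive tract that is often active in tumour lines, the collagen gene Col6a3, the lectin gene Lgals3 and the chemokine gene Cxcl1. The lower genes included Gap43, a growth cone protein gene, the chromatin architectural gene Hmga2 and Cd274, which encodes PD-L1. The differences were mostly modest. Their median size was 0.55 on the log2 scale for higher and 0.40 for lower genes. Of the higher and lower genes 54 and 13 exceeded 1, and 12 and 2 exceeded 2. More genes stood at the lowest value in guide 1 by the median, and whether that adds to this imbalance was not tested. Over all genes tested the median difference was 0.0066 and 51.4% of differences were positive. Of the called genes 341 had the same sign in all 3 treatments, as had 34.9% of all genes tested. The fit over treatments favours genes whose difference holds in each, so the 341 are not separate support for a stable difference. In 132 of the 343 the 6 libraries of one guide did not overlap the 6 of the other, 95 higher and 37 lower in guide 2, while 1.47% of all genes tested (1.06% higher and 0.409% lower) were without overlap. In 11 of the 343, and 10 of the 132, no library of the lower population reached 0 log2 CPM. These genes passed the filter on low values only through the population in which they are high. Most differences over 2 were in such genes. Dlx3, Foxs1, Grk3, Wfdc15a, Vill, Strc, Ecscr, Nr5a1 and Gm15128 were higher in guide 2, and Tmod2 was lower. Those sizes are a description. In some other called genes the lower population had libraries at 0 or more, but fewer than the 4 the filter asks. At an unadjusted p under 0.05 there were 2174 genes. The called genes comprised 291 protein-coding genes, 31 processed pseudogenes, 7 microRNA genes, 3 lincRNAs and 3 snoRNAs among others, and 63 had exons overlapping another measured gene, for which tags may have been assigned to either.

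The count depended on the fit and on the libraries used. It was 146 with no mean-variance trend, 527 with array weights and 625 with all 24 libraries in the fit. It was 80 without the TNF 6 h libraries and 203 without the untreated libraries, the latter chosen after seeing the data. With single libraries left out it was 533 without guide 1 TNF 1 h replicate 2, 228 and 201 without guide 2 TNF 1 h replicates 1 and 2, and 221 without guide 2 TNF 6 h replicate 1. Of the 343 genes 329 remained called without guide 1 TNF 1 h replicate 2.

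**Figure D1:**
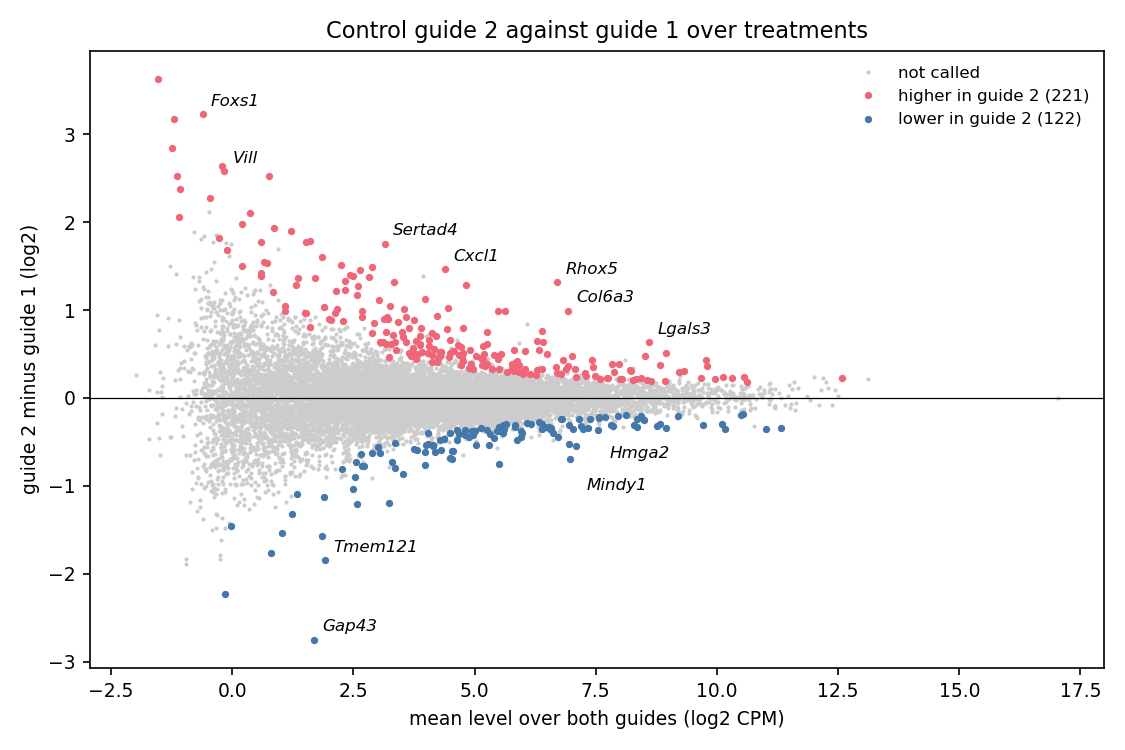
Difference between control guides over treatments (log2, guide 2 minus guide 1) against the mean level over both guides (log2 CPM), 1 point per gene for 12728 genes. The 221 genes called higher and 122 called lower are coloured; at high levels called differences are small, and the largest differences lie at low levels.

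A set of 10 genes passed the threshold in untreated cells, at TNF 1 h and at TNF 6 h alike, and was chosen after its values were seen. Rhox5 (chromosome X, 37804842 to 37808876 in GRCm38) had a lowest, median and highest level of 5.64, 5.96 and 6.56 log2 CPM in guide 1 and 7.30, 7.34 and 7.48 in guide 2. The guides did not overlap, and the difference of 1.32 ± 0.11 (SE) on the log2 scale, 2.50-fold, passed with an adjusted p of 3.65e-07. Col6a3, which encodes a chain of the pericellular collagen VI (chromosome 1, 90765923 to 90843971), lay at 6.17, 6.34 and 6.80 log2 CPM in guide 1 and 7.22, 7.47 and 7.49 in guide 2. It was higher in guide 2 by 0.99 ± 0.08 (adjusted p = 1.7e-07), again with no overlap. Lgals3 encodes galectin-3, a secreted galactoside-binding lectin (chromosome 14, 47367751 to 47386160). Its levels of 8.23, 8.28 and 8.34 log2 CPM in guide 1 and 8.80, 8.94 and 9.03 in guide 2 did not overlap, and the difference of 0.63 ± 0.05 (adjusted p = 1.61e-07) had the smallest SE of the set.

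The small heat shock protein gene Cryab (chromosome 9, 50751325 to 50756636) lay at 4.81, 5.03 and 5.05 log2 CPM in guide 1 and 5.88, 5.94 and 6.14 in guide 2, a difference of 0.99 ± 0.08. Htra1, a secreted serine protease gene (chromosome 7, 130936111 to 130985660), lay at 4.89, 5.12 and 5.38 log2 CPM in guide 1 and 5.94, 6.15 and 6.24 in guide 2, a difference of 0.99 ± 0.10. H2-DMb1 encodes a chain of the peptide exchange factor of MHC class II (chromosome 17, 34153072 to 34160230). Its levels were 3.01, 3.38 and 3.80 log2 CPM in guide 1 and 4.39, 4.55 and 4.70 in guide 2, a difference of 1.13 ± 0.12. Sertad4 (chromosome 1, 192844488 to 192855756) lay at 1.30, 2.46 and 2.80 log2 CPM in guide 1 and 3.33, 4.25 and 4.41 in guide 2, the largest difference of the set at 1.75 ± 0.17. In each of these genes every guide 2 library was above every guide 1 library, with adjusted p of 5.84e-06 or less. Exons of Sertad4 overlap the gene model Gm15867.

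Hmga2 and Mindy1 were the genes of the set that were lower in guide 2. Hmga2, whose product bends AT-rich DNA and is typical of embryonic and tumour cells (chromosome 10, 120361275 to 120476469), lay at 7.24, 7.38 and 7.51 log2 CPM in guide 1 and 6.72, 6.83 and 6.97 in guide 2. The difference was -0.54 ± 0.06 (adjusted p = 7.15e-06). Mindy1, a deubiquitinase gene (chromosome 3, 95281345 to 95296166), lay at 7.10, 7.31 and 7.56 log2 CPM in guide 1 and 6.46, 6.61 and 6.80 in guide 2, a difference of -0.69 ± 0.07. Neither gene had overlapping guides, and exons of Mindy1 overlap those of Anxa9 and Prune1. Ier3, an immediate-early gene induced by NF-kB (chromosome 17, 35821684 to 35822923), overlapped between guides across treatments but not within one. Guide 2 was above guide 1 by 0.54 in untreated cells, 0.46 at TNF 1 h and 0.45 at TNF 6 h. With any 1 of the 12 libraries left out all 10 stayed called over treatments, but the calls within single treatments, which define the set, did not hold as well. Between 1 gene (without guide 2 TNF 6 h replicate 2) and 10 genes then passed in all 3 treatments, 2 without guide 2 TNF 6 h replicate 1, 3 without guide 1 untreated replicate 1, and 4 or 5 without any of 7 others. All 10 passed without either guide 1 TNF 1 h replicate.

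The upstream sequence is shown for 3 of these genes, a pair that was higher and 1 that was lower in guide 2, as the DNA upstream of genes whose difference held in every treatment. Windows of 250 bases ending before the annotated start come from RefSeq on GRCm38.p6, which held a window for 9 of the 10 genes, and CG dinucleotides, the substrate of DNA methylation in mammals, are in capitals.
Col6a3 (chr1:90843972-90844221, minus strand): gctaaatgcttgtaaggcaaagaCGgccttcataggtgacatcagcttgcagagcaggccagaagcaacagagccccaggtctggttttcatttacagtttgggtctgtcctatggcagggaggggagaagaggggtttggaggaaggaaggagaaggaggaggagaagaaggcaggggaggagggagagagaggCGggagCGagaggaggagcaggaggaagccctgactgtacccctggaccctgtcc
H2-DMb1 (chr17:34152941-34153190, plus strand): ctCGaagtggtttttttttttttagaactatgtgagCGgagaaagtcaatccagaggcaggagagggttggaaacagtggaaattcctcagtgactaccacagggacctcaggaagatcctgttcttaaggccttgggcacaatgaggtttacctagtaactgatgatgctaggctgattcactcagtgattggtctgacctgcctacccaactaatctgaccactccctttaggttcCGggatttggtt
Hmga2 (chr10:120476470-120476719, minus strand): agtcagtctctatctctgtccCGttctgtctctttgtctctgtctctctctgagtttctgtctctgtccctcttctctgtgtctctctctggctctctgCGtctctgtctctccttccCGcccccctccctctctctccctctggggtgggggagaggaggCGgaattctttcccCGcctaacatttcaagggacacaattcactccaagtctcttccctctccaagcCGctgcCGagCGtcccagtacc
The windows hold 3, 3 and 8 CG dinucleotides. The windows not shown varied as much. Among genes higher in guide 2, Htra1 had 22, Lgals3 13, Ier3 8, and Sertad4 25 and 4 at separate starts. Rhox5, also higher, had 4 at a start that matched no GENCODE transcript, and Mindy1, lower in guide 2, had 10. The counts thus did not separate higher from lower genes. Of 32851 RefSeq windows of this length 92.1% hold at least 1, the median is 6, and 37.8% hold 3 or fewer and 59.7% hold 8 or fewer. The RefSeq start of H2-DMb1 lies inside the GENCODE gene, so that its window overlaps that gene's annotated first bases. Methylation was not measured, and the counts describe the sequence only.

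**Figure D2:**
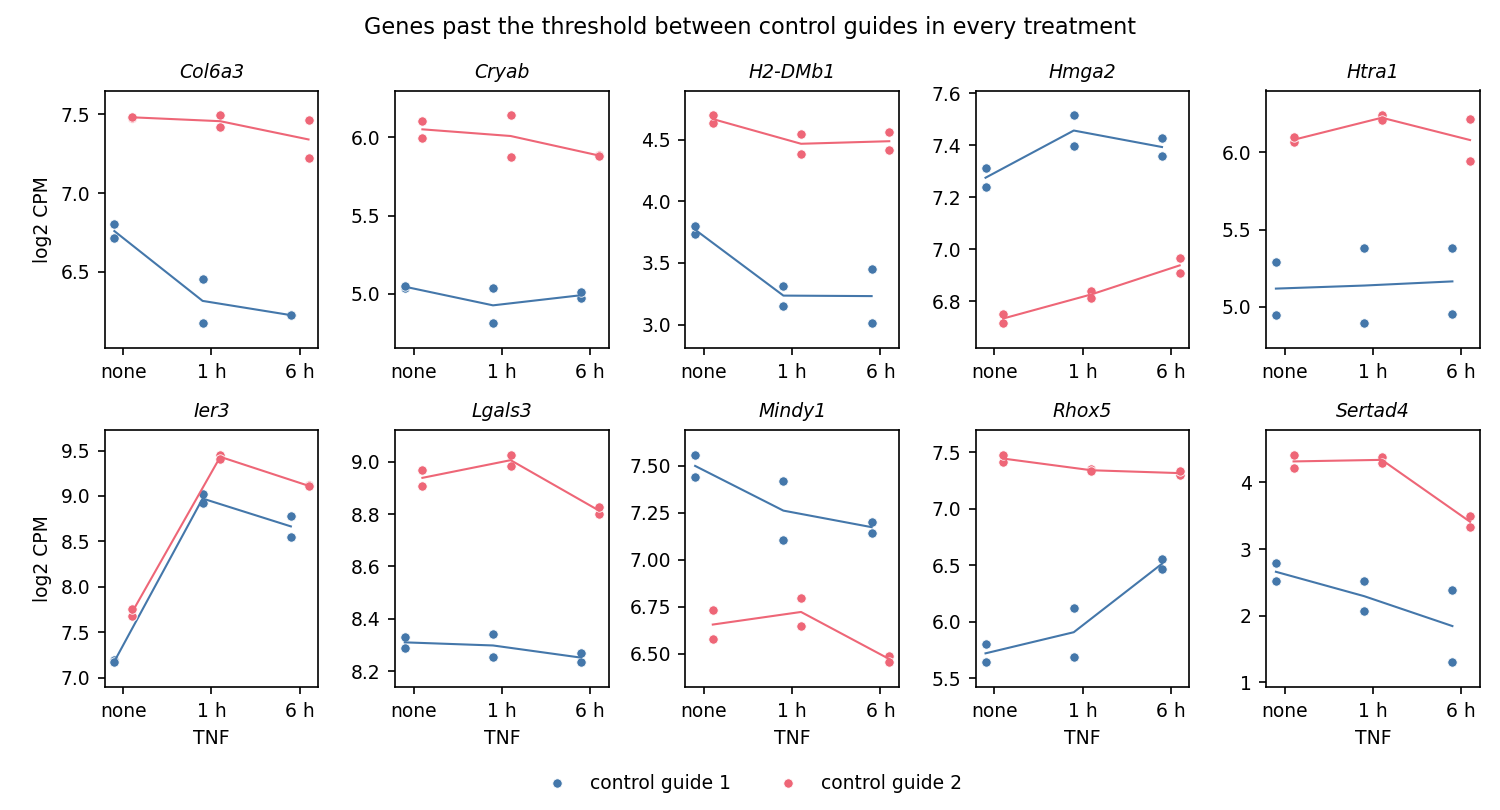
Level (log2 CPM) of the 10 genes that passed the threshold in every treatment, in untreated cells and after 1 h and 6 h of TNF; points are the 2 libraries of each guide and treatment, lines join their means, and each panel has its own axis. The guides are apart at each time in every panel, and Ier3 rises with TNF in both.

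The largest differences toward guide 2 among named genes with a mean of at least 1 log2 CPM in one population were in genes that were near the bottom of the scale in guide 1. Foxs1, a forkhead factor gene, lay at -3.35, -2.53 and -0.52 log2 CPM in guide 1 and 0.52, 0.90 and 1.95 in guide 2. Its difference of 3.23 on the log2 scale is bounded by the lowest value of the scale. Foxs1 and Vill, related to villin (2.58), had no guide 1 library at 0 log2 CPM or more and passed the filter only through guide 2, so their values are given as a description. The kinase gene Hunk (2.64 ± 0.55), Kirrel3, an adhesion gene of the immunoglobulin family (2.53 ± 0.46), and Tmem246 (2.11 ± 0.36) followed. Hunk and Tmem246 had 1 guide 1 library at 0 log2 CPM or more and Kirrel3 had 3, fewer than the 4 the filter asks. They too were kept through guide 2, so the lack of overlap between their guides is a description. The next 10 were Sec16b (1.98), Scarf2 (1.93), Dppa2 (1.90), Tns1 (1.78), Ociad2 (1.78), Atp1b1 (1.78), Sertad4 (1.75), Slco4a1 (1.60), Rhd (1.54) and Abcg2 (1.54), again without overlap. Of these Sec16b (1), Ociad2 and Abcg2 (2 each) and Scarf2 and Rhd (3 each) also had fewer than 4 guide 1 libraries at 0 log2 CPM or more. Their lack of overlap is a description as well. Dppa2 is a gene of pluripotent cells, Tns1 encodes the focal adhesion protein tensin, Atp1b1 a sodium pump subunit and Abcg2 a drug efflux pump. Atp1b1 exons overlap those of Nme7, and Sec16b was no longer called without guide 2 TNF 1 h replicate 2 (adjusted p = 0.0531). Dlx3, a homeobox gene outside the naming rule, also passed the filter only through guide 2. It stood at the lowest value in all 6 guide 1 libraries and at -1.76, 0.60 and 1.68 log2 CPM in guide 2.

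Among genes lower in guide 2 the largest difference was in Gap43. It lay at 2.52, 3.06 and 3.67 log2 CPM in guide 1 and at -1.07, 0.44 and 1.19 in guide 2, without overlap, and differed by -2.75 ± 0.30 (adjusted p = 1.45e-05). Tmem121 (-1.84 ± 0.24), Stard8 (-1.76 ± 0.34) and Smim1 (-1.32 ± 0.32) came next, each with overlapping guides. Tmem121 lay at 3.71 and 3.36 log2 CPM in untreated guide 1 libraries and 1.58 and 2.37 at TNF 6 h, and at 1.48 and 0.66 and then 0.30 and 0.64 in guide 2, so that the guides were apart at each of these times. Cd274 lay at 2.25, 2.83 and 4.76 log2 CPM in guide 1 and 1.25, 1.98 and 2.60 in guide 2, a difference of -1.21 ± 0.29 (adjusted p = 0.0265). Its highest value was that of guide 1 TNF 1 h replicate 2, without which the difference was -0.85, and leaving out any of 7 of the 12 libraries ended the call (adjusted p up to 0.0729).
The other named genes lower in guide 2 were Aif1l (-1.20), the ketone body enzyme gene Bdh1 (-1.13), the Wnt co-receptor gene Ptk7 (-1.09), the adhesion molecule gene Alcam (-1.03), Syt13 (-0.90), Sirpa, which encodes the receptor for CD47 (-0.86), Ltbp1, which encodes a binding protein of latent TGF-beta (-0.79), Mrpl47 (-0.78), Col3a1 (-0.75) and Clec1a (-0.73). Of these Aif1l, Ptk7, Sirpa, Ltbp1 and Mrpl47 did not overlap between guides. Smim1, Bdh1 and Ptk7 each lost the call when any of 7 single libraries was left out (adjusted p up to 0.0720, 0.0827 and 0.0923). Exons of Smim1 overlap Lrrc47, and exons of Mrpl47 overlap Actl6a and Ndufb5.

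**Figure D3:**
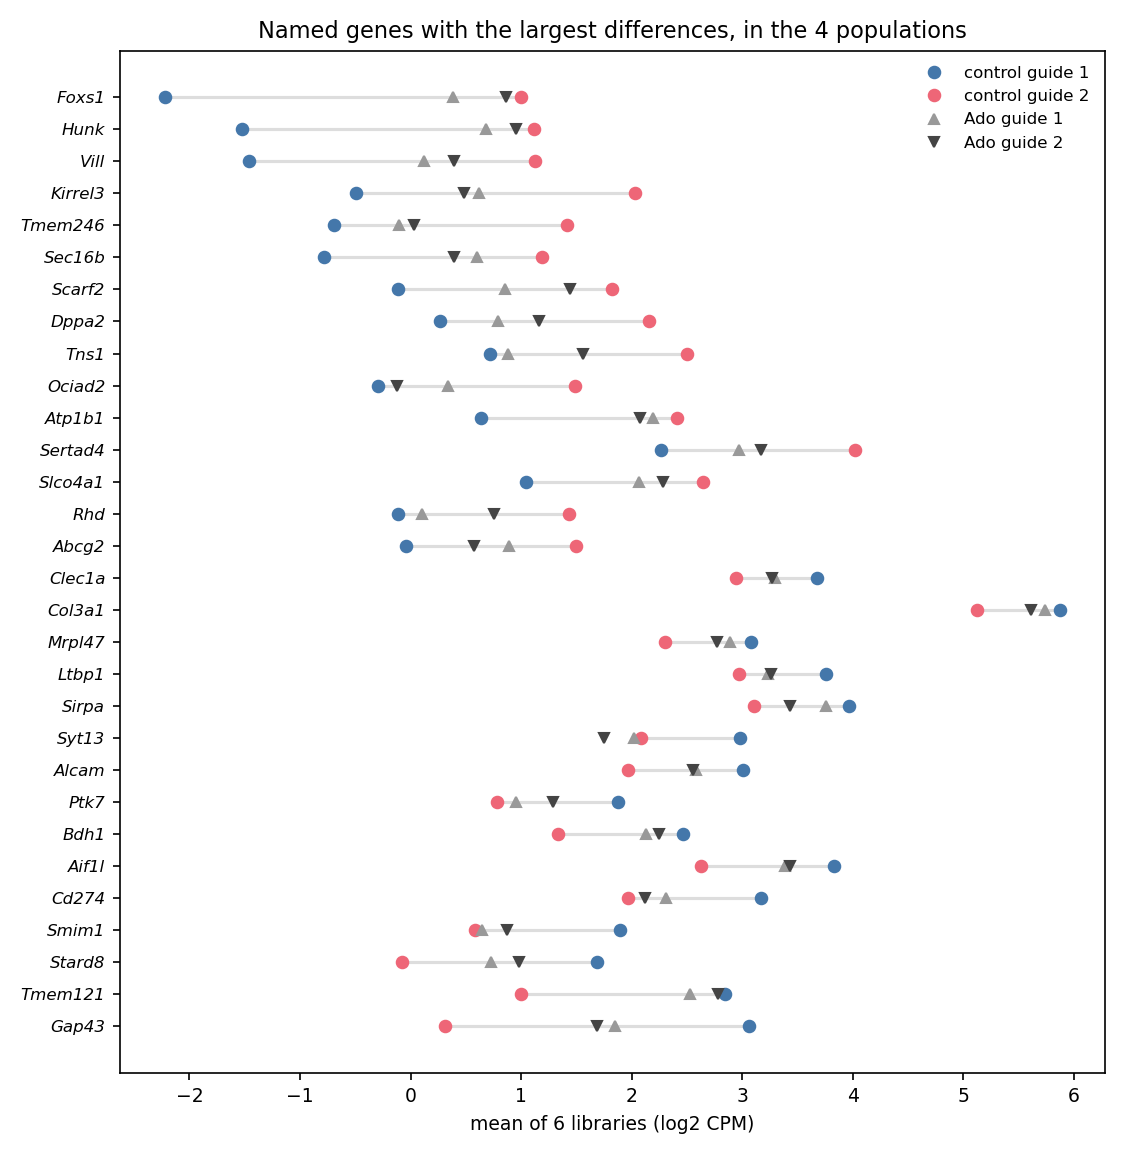
Mean level over 6 libraries (log2 CPM) in the control guide 1, control guide 2, Ado guide 1 and Ado guide 2 populations for the 15 named genes with the largest differences toward control guide 2 and the 15 with the largest toward control guide 1. The Ado populations (triangles) lie between the control populations for most genes, at differing distances. For Syt13 both Ado means lie below both control means.

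Gene lists of pathways and cell types were then read against the shares for all genes, 1.74% called higher and 0.959% called lower. For extracellular matrix genes and secreted proteases 6 of 46 tested genes were higher and 2 lower in guide 2, with a median difference of 0.09. Col6a3, Hspg2, which encodes the basement membrane proteoglycan perlecan (0.65 ± 0.12), Cyr61 (0.76 ± 0.16), Col5a1 (0.61 ± 0.13), Col6a2 (0.56 ± 0.14) and the gelatinase gene Mmp9 (0.55 ± 0.13) were higher. The fibrillar collagen gene Col3a1 (-0.75 ± 0.09) and Dcn, a proteoglycan that decorates collagen fibrils (-0.59 ± 0.12), were lower. The list thus held genes differing in both directions, including collagens on either side. Hspg2 lay at 5.31, 6.08 and 6.37 log2 CPM in guide 1 and 6.45, 6.59 and 6.79 in guide 2 without overlap. Dcn, also a fibroblast marker, did not overlap either, at 3.88, 4.12 and 4.36 log2 CPM in guide 1 and 3.36, 3.53 and 3.69 in guide 2.

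Cell adhesion and surface genes had 5 higher and 2 lower of 44 tested. The T-cadherin gene Cdh13 (0.89 ± 0.12), the tetraspanin gene Cd9 (0.49 ± 0.09), Cd34 (0.30 ± 0.05), the glypican gene Gpc1 (0.36 ± 0.07) and Epha2 (0.60 ± 0.14) were higher, Alcam and the integrin gene Itga6 (-0.39 ± 0.11) lower. Itga6 was at the limit, with an adjusted p of 0.0493, and leaving out any of 11 of the 12 libraries ended its call (adjusted p up to 0.137). Genes of the mesenchymal transition had 3 higher and 0 lower of 25 tested: Snai1, a repressor of epithelial genes (0.51 ± 0.10), the receptor gene Tgfbr2 (0.52 ± 0.12) and the BMP target Id3 (0.33 ± 0.07), with a list median of 0.14. Snai1 did not overlap, at 4.30, 4.51 and 4.81 log2 CPM in guide 1 and 4.86, 4.99 and 5.38 in guide 2. Tgfbr2 lost its call without guide 2 TNF 1 h replicate 1 (adjusted p = 0.0589). None of 3 tested intestinal epithelial genes and none of 11 immune cell genes passed (limma). At an unadjusted p under 0.05 there were 0 and 2, against 2174 of 12728 over all genes tested. Of 6 endothelial, pericyte and fibroblast genes only Dcn passed. Whether marker levels of another cell type play a part in these differences was not tested.

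Genes of inflammatory signalling differed in part. Of 17 chemokine and cytokine genes 3 were higher and 0 lower, the list median was 0.39, and 16 of the 17 differences were positive. Cxcl1, a neutrophil chemokine gene and a TNF target, lay at -0.89 and 1.31 log2 CPM in untreated guide 1 libraries and at 1.88 and 2.31 in untreated guide 2 libraries. At TNF 1 h it lay at 6.13 and 5.94 in guide 1 and 7.41 and 7.39 in guide 2, and at TNF 6 h at 4.54 and 4.87 against 5.81 and 5.89. Guide 2 was thus above guide 1 before and after TNF, by 1.46 ± 0.23 over treatments (2.76-fold, adjusted p = 0.00111). The monocyte chemokine gene Ccl7 (1.05 ± 0.23) and the alarmin gene Il33 (0.65 ± 0.14) were also higher. Ccl7 lost its call without guide 2 untreated replicate 2 or guide 2 TNF 6 h replicate 1 (adjusted p up to 0.0533), and Il33 without guide 2 TNF 1 h replicate 2 (adjusted p = 0.0563). Ccl2, another monocyte chemokine gene, did not pass (0.44 ± 0.15, adjusted p = 0.115). Left out alone, guide 1 TNF 1 h replicate 1 brought it past the threshold, at 0.60. At TNF 1 h Ccl2 was at 8.72 and 7.59 log2 CPM in guide 1 and 8.49 and 8.31 in guide 2.

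Immediate-early and MAPK feedback genes had 3 higher and 0 lower of 48 tested: Ier3, the MAP kinase phosphatase gene Dusp1 (0.86 ± 0.16) and the nuclear receptor gene Nr4a1 (0.89 ± 0.23). Dusp1 lay at 2.91 and 2.52 log2 CPM in untreated guide 1 libraries, 3.97 and 3.73 at TNF 1 h and 2.25 and 2.50 at TNF 6 h. In guide 2 it lay at 2.87 and 3.15, then 5.03 and 5.14, then 3.42 and 3.46. The interaction did not pass for Dusp1 (0.94, adjusted p = 0.301 at TNF 1 h, and 0.78, adjusted p = 0.625 at TNF 6 h). Its exons overlap those of Ergic1. Nr4a1 lost its call when any of 7 libraries was left out (adjusted p up to 0.115). None of 29 NF-kB subunit and feedback genes passed (limma, median difference 0.02). At an unadjusted p under 0.05 there were 5, against 2174 of 12728 over all genes tested. Nfkbia, which encodes the NF-kB inhibitor IkB-alpha, differed by -0.20 (adjusted p = 0.0923) and Tnfaip3, which encodes A20, by 0.51 (adjusted p = 0.397). Nfkbia was called lower without guide 2 untreated replicate 2 (-0.24). None of 37 genes that transmit the TNF receptor signal or act in cell death passed either, with a median of 0.07 and 10 at an unadjusted p under 0.05. The TNF targets Vcam1 (-0.02, adjusted p = 0.912) and Lif (0.38, adjusted p = 0.727) did not pass, and Lif differed by -0.11 to 0.72 with single libraries left out.

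The class I presentation and interferon lists each held 1 gene called higher and 1 called lower, while 2.69% of all genes tested were called. Of 24 class I presentation genes the immunoproteasome gene Psmb9 was higher (0.70 ± 0.11, adjusted p = 0.000727) and the chaperone gene Pdia3 lower (-0.23 ± 0.06). Psmb9 lay at 3.76, 3.80 and 4.17 log2 CPM in guide 1 and 4.27, 4.59 and 4.72 in guide 2, without overlap, and its exons overlap those of Tap1. Pdia3 was at the limit (adjusted p = 0.0484) and lost its call when any of 10 libraries was left out. Of 57 interferon-stimulated genes Rsad2 was higher (0.44 ± 0.10) and Cd274 lower, the latter a call that ended without any of 7 libraries. Without guide 1 TNF 6 h replicate 1 or guide 2 untreated replicate 2 Rsad2 was not called (adjusted p up to 0.0509). Of 12 genes of nucleic acid sensing and efflux pumps only Abcg2 passed, a gene kept by the filter through its guide 2 libraries.

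Heat shock and chaperone genes had 4 lower and 1 higher of 19 tested, with a median of -0.13. Hspa8, the constitutive cytosolic HSP70 gene, lay at 9.78, 9.86 and 10.01 log2 CPM in guide 1 and 9.45, 9.58 and 9.67 in guide 2, without overlap (-0.30 ± 0.05, adjusted p = 0.00192). The mitochondrial chaperonin gene Hspd1 (-0.30 ± 0.06), Hspa4 (-0.36 ± 0.09) and the HSP90 gene Hsp90aa1 (-0.32 ± 0.08) were lower too, while Cryab was higher. Guide 1 TNF 1 h replicate 2 held the highest level of Hspd1 (10.66 log2 CPM) and Hspa4 (8.35), and without it the differences were -0.23 and -0.26 and still passed. With no TNF 1 h library in the fit 2 members were lower and 1 higher. Hspa4 lost its call when any of 6 other libraries was left out (adjusted p up to 0.0996). Exons of Hspa8 hold small nucleolar RNAs (Snord14c, Snord14d and Snord14e) and those of Hspd1 overlap Hspe1.

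Cell cycle and sterol genes had a few lower members. Of 32 genes of G2 and mitosis Ube2c (-0.32 ± 0.06) and the proliferation marker gene Mki67 (-0.48 ± 0.09) were lower, 0 were higher, and 6 of the 32 differences were positive. At an unadjusted p under 0.05 (limma) 2 of the 32 were higher and 10 lower, while 2174 of 12728 genes tested reached it in either direction. Mki67 was highest in guide 1 TNF 1 h replicate 2 (6.80 log2 CPM), without which the difference was -0.39 and still passed. Of 31 S phase genes only Uhrf1, which maintains DNA methylation at replication, was lower (-0.23 ± 0.06), and its call ended when any of 9 libraries was left out. Sterol and fatty acid synthesis had 2 lower of 36 tested, the cholesterol enzyme genes Cyp51 (-0.40 ± 0.07) and Msmo1 (-0.29 ± 0.07), with a median of -0.12 and 10 positive differences. At an unadjusted p under 0.05 (limma) 15 of the 36 were lower and 0 higher. Exons of Cyp51 overlap Akap9, and Msmo1 was not called without guide 2 TNF 1 h replicate 2 or guide 2 TNF 6 h replicate 1 (adjusted p up to 0.0688).

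The called antioxidant and metal-binding genes were higher in guide 2. Of 38 NRF2, glutathione and metallothionein genes 5 were higher and 0 lower, with a median of 0.08. Positive differences made up 22 of the 38, against 51.4% of all genes tested. At an unadjusted p under 0.05 (limma) 12 were higher and 2 lower. With no TNF 1 h library in the fit 4 were called higher and 1 lower. The 5 called over all libraries were the ferritin genes Fth1 (0.37 ± 0.06) and Ftl1 (0.23 ± 0.05), the metallothionein gene Mt1 (0.22 ± 0.05), the glutathione transferase gene Gstm2 (0.89 ± 0.22) and the carbonyl reductase gene Cbr3 (0.48 ± 0.12). Ferritin genes have many processed pseudogenes, and the pseudogenes Ftl1-ps1, Ftl1-ps2 and Ftl2-ps were called higher too (0.23, 0.49 and 0.55), so the share of each is uncertain. Gstm2 and Mt1 lost their calls when any of 8 and 6 libraries was left out. Of 38 genes of ATF4 and the unfolded protein response Cebpb (0.61 ± 0.14) and the amino acid transporter gene Slc3a2 (0.25 ± 0.07) were higher, their calls ending without any of 7 and 9 libraries. Of 36 hypoxia and glycolysis genes only the vasodilator peptide gene Adm was higher (0.61 ± 0.14), a call lost without any of 4 libraries, and of 25 p53 targets only Plk2 (0.47 ± 0.09).

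Developmental and epigenetically regulated genes contributed single members. Of 10 tested germline and cancer-testis genes Rhox5 was called, and all 10 differences were positive. Of 18 imprinted genes H19, a maternally expressed non-coding RNA gene, was higher (1.28 ± 0.29) and Dcn lower. H19 lay at 0.15, 0.45 and 2.13 log2 CPM in guide 1, the highest being guide 1 TNF 1 h replicate 1, and at 1.58, 1.93 and 2.21 in guide 2. Its call ended without guide 2 untreated replicate 2 (adjusted p = 0.0568). Of 23 Wnt and Notch genes the Notch target Hes1 was higher (1.02 ± 0.17). Of 29 growth factor receptor and ligand genes Igfbp4, an IGF-binding protein gene, was higher (1.37 ± 0.21) and Bmp2 lower (-0.63 ± 0.15), Bmp2 losing its call without any of 7 libraries. None of 2 genes of X inactivation and the Y chromosome, 13 mitochondrially encoded genes and 18 housekeeping genes passed (limma), with medians of -0.09, 0.0077 and 0.0047. At an unadjusted p under 0.05 there were 0, 2 and 2, against 2174 of 12728 over all genes tested.

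The populations carrying Ado guides gave a comparison of the same kind that shares no library with the control comparison. Between Ado guide 2 and Ado guide 1, 1 of the 12728 genes passed (0.00786%), the gene model Gm23212, and it was not among the 343. The difference between the counts was not tested. Over all genes the median absolute difference was 0.14 on the log2 scale between control guides and 0.11 between Ado guides. Over the 343 genes, which were chosen for their control difference, it was 0.51 and 0.12, and 340 differed less between the Ado populations than between the control populations. The mean of the Ado populations lay between the control means in 278 of the 343 genes, as in 36.6% of all genes, beyond guide 1 in 25 and beyond guide 2 in 40. It was nearer to control guide 1 in 150 and nearer to control guide 2 in 193. The Ado populations also carry the Ado edit, which cannot be told apart from their own drift.

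Single genes fell on either side. Rhox5 averaged 7.28 and 7.41 log2 CPM in Ado guides 1 and 2, near the 7.37 of control guide 2, and control guide 1 was the low population at 6.05. H19 averaged 2.17 and 2.26 in the Ado populations, also near control guide 2. Lgals3 (8.28 and 8.25), Cryab (4.87 and 4.65), Htra1 (4.39 and 4.71), H2-DMb1 (3.66 and 3.57), Psmb9 (3.78 and 3.80) and Cdh13 (3.14 and 3.29) were near or below control guide 1, so that control guide 2 was the high population. Mindy1 averaged 6.71 in both Ado populations, close to control guide 2, and Hmga2 averaged 7.32 and 7.18, close to control guide 1. Gap43 (1.85 and 1.69), Col6a3 (6.98 and 7.10), Sertad4 (2.97 and 3.17) and Cxcl1 (4.81 and 4.82) lay between the control populations.

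Treatment by treatment, guide 2 differed from guide 1 in 68 genes in untreated cells (0.534%), 135 at TNF 1 h (1.06%) and 61 at TNF 6 h (0.479%). In untreated cells 41 genes (0.322%) were higher and 27 (0.212%) lower in guide 2. At TNF 1 h 71 (0.558%) were higher and 64 (0.503%) lower, and at TNF 6 h 36 (0.283%) and 25 (0.196%). These fits rest on 2 libraries per guide. With 1 library left out at a time they gave 5 to 444, 6 to 2017 and 1 to 271 genes, and the highest counts came without a replicate of guide 1 at TNF 1 h (444 without replicate 2, 2017 and 271 without replicate 1). Gap43 differed by -2.96, -2.12 and -3.16 on the log2 scale in untreated, TNF 1 h and TNF 6 h cells, and Cxcl1 by 1.88, 1.36 and 1.15. Gap43 passed in untreated cells and at TNF 6 h (adjusted p = 0.00955 and 0.00417), and Cxcl1 in untreated cells only (adjusted p = 0.0348, then 0.0987 and 0.284).

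Both populations responded to TNF. Against untreated cells of the same guide, 564 genes (4.43%) passed at TNF 1 h in guide 1 and 18 (0.141%) in guide 2, and 1738 (13.7%) and 577 (4.53%) at TNF 6 h. In guide 1 422 genes (3.32%) were higher and 142 (1.12%) lower at TNF 1 h, and 876 (6.88%) and 862 (6.77%) at TNF 6 h. In guide 2 all 18 were higher at TNF 1 h, and 447 (3.51%) were higher and 130 (1.02%) lower at TNF 6 h. These counts do not show that the responses differ, which the interaction tests directly. The interaction is the TNF response in guide 2 minus that in guide 1. At TNF 1 h, 0 genes passed (limma), with 1362 at an unadjusted p under 0.05, 12 with array weights and 1258 without guide 1 TNF 1 h replicate 1. The smallest p-values belonged to the chaperone gene Dnaja1 (-0.79 ± 0.14), Eif3e (-0.81 ± 0.16) and Rraga (-0.72 ± 0.15), each with an adjusted p of 0.189. Dnaja1 lay in guide 1 at 6.90 and 7.07 log2 CPM untreated and 7.64 and 7.93 at TNF 1 h, and lay in guide 2 at 7.36 and 7.24 untreated and 7.30 and 7.32 at TNF 1 h. The established TNF targets did not pass the interaction test. In simulated data the TNF 6 h interaction fit recovered 19.4% of 2-fold differences, so a difference in response may have been missed. Cxcl1 responded by 5.83 in guide 1 and 5.31 in guide 2 at TNF 1 h, Nfkbia by 3.25 and 2.95, Ccl2 by 2.60 and 1.91, Tnfaip3 by 4.04 and 4.37 and Vcam1 by 1.23 and 0.72 (interaction adjusted p of 0.788, 0.395, 0.432, 0.914 and 0.277).

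At TNF 6 h 14 genes (0.11%) passed, all with a smaller response in guide 2. Of these 13 are non-coding, 9 from the class of small non-coding RNAs described below and the others microRNA gene models outside that class. The protein-coding gene is Rhox5. Rn7sk, the 7SK RNA, which sequesters the transcription elongation kinase P-TEFb, lay at 4.80 and 5.05 log2 CPM in untreated guide 1 libraries and at 12.47 and 12.58 at TNF 6 h. In guide 2 it lay at 5.47 and 5.61 untreated and 11.87 and 11.79 at TNF 6 h. The response was 7.60 in guide 1 and 6.29 in guide 2, a difference of -1.31 (adjusted p = 0.0054), to which a higher untreated level and a lower level at TNF 6 h both contributed. The 7SK-like models Gm26315, Gm24447 and Gm23624 and the U3 RNA genes Rnu3b1, Rnu3b2, Rnu3b3 and Rnu3b4 differed by -1.16 to -1.32. Copies of 7SK and of U3 are nearly identical, so tags may be split between them and each copy's value is uncertain. The microRNA gene models Gm24187, Gm24270, Gm25911 and Gm23935 differed by -1.45 to -1.53. Snord52 differed by -4.86, with both untreated guide 1 libraries at the lowest value, so its guide 1 response has no measured base. The count and its split by direction varied with the fit. With no mean-variance trend 0 genes passed (855 at an unadjusted p under 0.05), and with array weights 38 did, 8 with a larger and 30 with a smaller response in guide 2. With 1 library left out at a time between 2 (without guide 2 TNF 6 h replicate 2) and 124 genes passed. The split was 40 larger and 75 smaller without guide 1 TNF 1 h replicate 1, and 45 and 79 without replicate 2. Leaving out any of 6 libraries ended the call of Rn7sk, and any of 7 that of Gm26315. With protein-coding genes alone, normalised again, 0 passed, Rhox5 included.

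**Figure D4:**
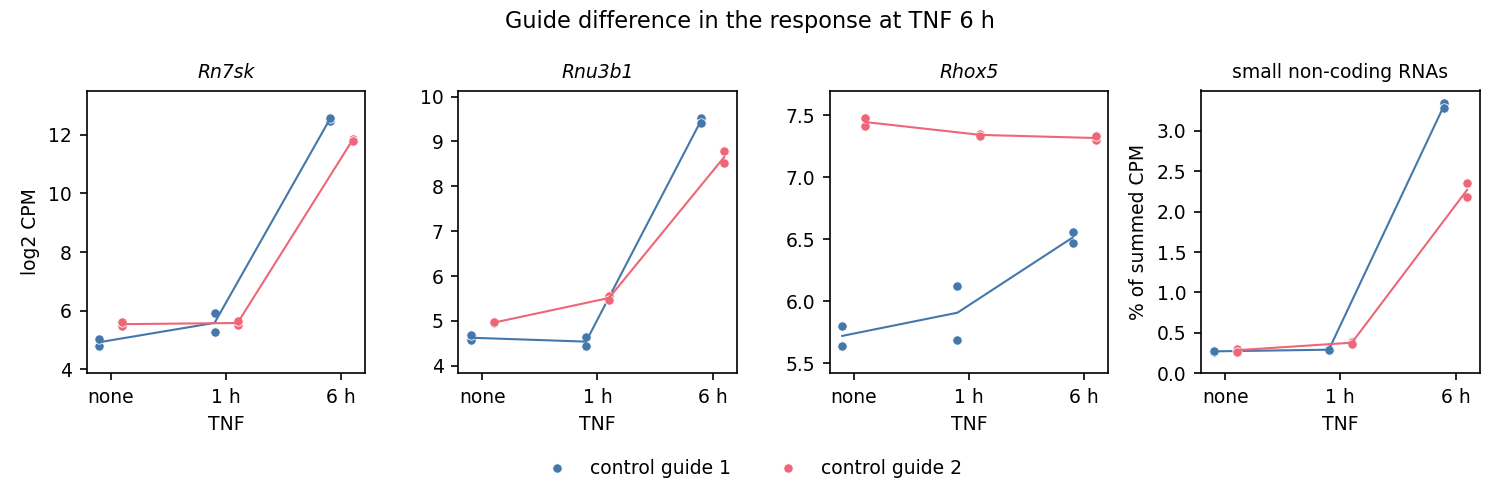
Level (log2 CPM) of Rn7sk, Rnu3b1 and Rhox5 and the share of small non-coding RNAs, without microRNA gene models, in the summed CPM (%). Values are for untreated cells and after 1 h and 6 h of TNF. Points are the 2 libraries per guide and treatment and lines join their means. At TNF 6 h the small RNAs are higher in guide 1 than in guide 2, and Rhox5 rises in guide 1 while guide 2 stays at its higher level.

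As a class, which leaves out microRNA gene models, small non-coding RNAs took a smaller share at TNF 6 h in guide 2 than in guide 1. They took 3.35% and 3.28% of the summed CPM in guide 1 at TNF 6 h and 2.36% and 2.18% in guide 2, against 0.264% to 0.392% in all control libraries that were untreated or at TNF 1 h. Of 306 small RNAs tested, 216 passed higher at TNF 6 h in guide 1 and 166 in guide 2, with median responses of 2.54 and 2.03. The response difference was negative in 218 of the 306, with a median of -0.43, while it was negative in 48.1% of all genes with a median of 0.02. Rhox5 lay at 5.80 and 5.64 log2 CPM in untreated guide 1 libraries, 5.69 and 6.13 at TNF 1 h and 6.47 and 6.56 at TNF 6 h. In guide 2 it stayed between 7.30 and 7.48. Its TNF 6 h response was 0.79 in guide 1 (adjusted p = 0.000136) and -0.13 in guide 2 (adjusted p = 0.669), a difference of -0.92 (adjusted p = 0.0332).

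The median shift per chromosome was compared between guides by an exact permutation test with guide labels permuted within treatment, 216 arrangements, two-sided, for which the smallest possible p is 0.00926. With that limit 1 of 20 chromosomes alone cannot go below an adjusted p of 0.185, and at least 4 would have to reach the smallest p for any to pass. None passed, and 3 had an unadjusted p under 0.05. The X chromosome reached the smallest possible p (-0.05 on the log2 scale over 502 genes, adjusted p = 0.185), and chromosome 2 followed (0.03, exact permutation p = 0.0185, adjusted p = 0.185). The 10 called genes on the X, among them Rhox5, were 1.99% of its tested genes, against 2.69% of all genes tested. Of these 7 were higher and 3 lower in guide 2, whereas the median shift of the X was negative.

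Of the 338 called genes with a position, 24 neighbourhoods of genes within 100000 bases of each other held more than 1. The largest lay on chromosome 12, 21240825 to 21417637 in GRCm38, where 4 of 5 tested genes were called higher in guide 2 and all 5 differences were positive, a group singled out after its values were seen. Itgb1bp1, which encodes an inhibitor of integrin activation, differed by 0.48 ± 0.09 and Cpsf3, the endonuclease gene of mRNA 3' end processing, by 0.32 ± 0.07. The esterase gene Iah1 differed by 0.78 ± 0.11 and Ywhaq, which encodes a 14-3-3 protein, by 0.39 ± 0.05. Adam17, the gene of the protease that releases TNF from the cell surface, lies between them and did not pass (0.19 ± 0.07, adjusted p = 0.135). Ywhaq lay at 7.66, 7.80 and 7.91 log2 CPM in guide 1 and 8.16, 8.17 and 8.21 in guide 2. Cpsf3, Iah1 and Ywhaq did not overlap between guides. Itgb1bp1 shares exon bases with Asap2 and Cpsf3, and Iah1 with Adam17, so these values are not independent. Asap2, upstream, did not pass (0.62 ± 0.20, adjusted p = 0.0978). The other 23 neighbourhoods held 2 called genes each. In most both genes differed the same way, such as H2-DMb1 and Psmb9 in the MHC on chromosome 17, both higher. Ptpre and Mki67 on chromosome 7 were both lower. Npm1 and Tlx3 (-0.36 and 1.51) and Ltbp3 and Frmd8 (0.46 and -0.68) differed in opposite directions. So did Strc and Pdia3 (2.52 and -0.23) and Steap1 and Gm15459 (0.38 and -0.34). Strc had 0 guide 1 libraries at 0 log2 CPM or more and Tlx3 had 2, so both were kept by the filter through guide 2. The call of Pdia3 ended without any of 10 libraries. Pairs such as Ftl1 and Gm22133 share exon bases, so their values are not independent. How many such neighbourhoods any 338 positioned genes would give was not tested. DNA copy number was not measured.

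**Figure D5:**
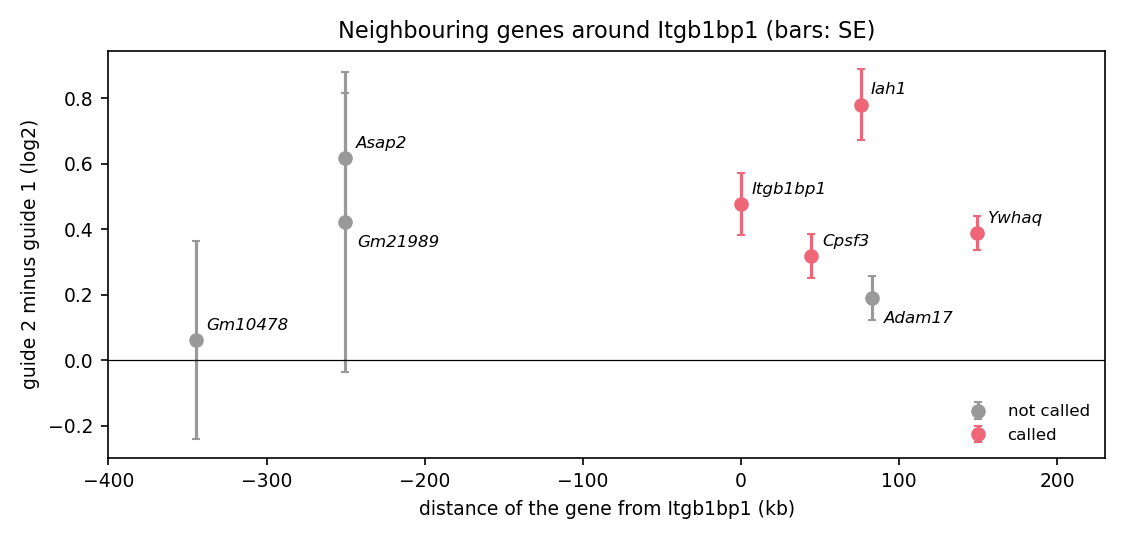
Difference between control guides (log2, guide 2 minus guide 1, bars are SE) for tested genes around Itgb1bp1 against the distance of the gene from Itgb1bp1 (kb). The 4 called genes include Itgb1bp1 and lie to its right, with Adam17 among them below the threshold; no tested gene is drawn at a negative difference.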

How the data were processed

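The authors profiled 24 libraries with a QuantSeq 3' mRNA kit, per the labels' protocols. Per the submitters' processing notes, reads were handled with cutadapt 1.7, FastQC, HISAT2, Subread with featureCounts, and limma, on GRCm38 (mm10); their order and settings, and whether counting used strand, are not given in the sources used here. The deposited table holds log2 CPM, as read from the values: all libraries share a lowest value of -3.35 and a highest of 17.04, as after quantile normalisation, so a level at either end carries no information on differences there. There were 0 further columns of per-library values.

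From these values limma 3.58.1 in R 4.3.3, with a mean-variance trend, fitted treatment plus guide to the 12 control libraries, and 6 means of guide and treatment for single treatments and interactions. The 12 Ado libraries were fitted alone. Genes at 0 or more log2 CPM in at least 4 control libraries were kept (12728 of 15390). Tests were two-sided, called at an adjusted p under 0.05 (Benjamini-Hochberg, over the 12728 genes). Chromosome medians used an exact permutation test (scipy 1.17.1). Gene positions are those of GENCODE M21 (GRCm38); of the symbols 15217 had a single match there, 41 more than 1 and 132 no match. Promoter windows are from RefSeq. The fits were tested on simulated data with added 1.5-fold, 2-fold and 4-fold differences. The fit over treatments recovered 49.25%, 76.12% and 96.97% of them, with 2 false calls among 150. The TNF 6 h interaction fit recovered 8.955%, 19.4% and 56.06%, with 7 false calls among 63. For control guide 2 at TNF 1 h titles and deposited columns give opposite replicate numbers; columns were joined by the sample description, and numbers follow the titles.

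Genes named were the 15 largest differences in each direction among called genes with 1 sign in the 3 treatments and a mean of at least 1 in the higher population, without unnamed models and pseudogenes; up to 4 called members of each list plus those against its direction; called interactions, or the 3 smallest p; and Ado, Cxcl1, Ccl2, Nfkbia, Tnfaip3, Vcam1, Lif and Rn7sk. Other genes were named after their values were seen. The comparison, the 29 lists and the naming rule were chosen with earlier results of these data known. The result of 1 list is not reported here. Alternatives changed the filter, offset, normalisation, trend, weights, design, replicate block and libraries used.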

Additional observations from a re-analysis of the deposited data

Results flagged for a closer look

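The TNF 6 h response differed between the control populations by the interaction test in 14 genes, each smaller in guide 2 (log2 difference of the responses, guide 2 minus guide 1). The 7SK RNA and its near-identical models differed by -1.31 (Rn7sk), -1.32 (Gm26315), -1.29 (Gm24447) and -1.19 (Gm23624). The U3 RNA genes differed by -1.16 (Rnu3b1), -1.32 (Rnu3b2), -1.19 (Rnu3b3) and -1.32 (Rnu3b4). The microRNA gene models Gm24187, Gm24270, Gm25911 and Gm23935 differed by -1.53, -1.50, -1.46 and -1.45. Snord52 differed by -4.86 and Rhox5 by -0.92. Gm24187 lay at 5.82 and 5.89 log2 CPM in untreated guide 1 libraries and 10.26 and 10.02 at TNF 6 h, against 6.46 and 6.49 and then 9.37 and 9.10 in guide 2. The symbols Rnu3b1, Rnu3b2, Rnu3b3 and Rnu3b4 each matched more than 1 gene in the annotation.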

How the results depend on the processing

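No called result changed direction under any alternative run. For the control guides over treatments (343 genes) the count was 146 with no mean-variance trend, 527 with array weights, 625 with all 24 libraries in the fit, 203 without the untreated libraries (chosen after seeing the data), 80 without the TNF 6 h libraries and 201 to 533 with 1 library left out at a time. In untreated cells (68) it was 3 with no trend, 354 with array weights, 120 with all 24 libraries and 5 to 444 with 1 library left out. At TNF 1 h (135) it was 4, 82 with array weights, and 6 to 2017. At TNF 6 h (61) it was 1 with no trend, 110 with array weights, 30 with protein-coding genes normalised again, and 1 to 271. For the TNF 1 h interaction (0) it was 12 with array weights, 1 with all 24 libraries and 0 to 1258. For the TNF 6 h interaction (14) it was 0 with no trend, 0 with protein-coding genes, 38 with array weights and 2 to 124. For the Ado guides (1) it was 0 with no filter, no trend or protein-coding genes, 2 with array weights and 0 to 8. Where a fit left 1 library in an arm, that library was assumed to vary like the others. With the replicate number as a block the control comparison gave 323 genes and the Ado comparison 4; deviations of libraries with the same number correlated at -0.0668 to 0.106, so the numbers were not taken as pairs. Of 2446 values of named genes under alternatives 2118 kept their side of the threshold, 314 fell short of it and 14 newly passed, with none reversed; calls of Itga6, Pdia3, Uhrf1, Slc3a2 and Gstm2 were lost most often. The depth was not stated, and single-treatment and interaction results rest on 2 libraries per arm; the cause of the shifts was not tested.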
